A study of Bos taurus with 6 samples.

Results

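NF-kB is a family of dimeric transcription factors that is held in the cytoplasm by inhibitor proteins of the IkappaB family and released when receptors for microbial products or inflammatory cytokines activate the IkappaB kinases. It switches on cytokine and chemokine genes, and with them the genes of its own inhibitors, so that the response limits itself. In epithelia that face a dense microbial community, such as that of the rumen, these ligands recruit and instruct leukocytes. The genes described here are 10 of the 32183 entries of the expression tables, chosen by gene name. They are the ligands CXCL8, IL6, CCL2, IL1A and LIF, the feedback inhibitors NFKBIA and TNFAIP3, and the subunits NFKB1, NFKB2 and RELB, whose own genes are NF-kB targets. The 10 names matched 11 entries, because IL6 occurs on 2.

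Expression was measured by RNA-seq in rumen epithelial primary cells (REPC), grown from the rumen of a single milk-fed Holstein bull calf of 2 weeks of age. A group of 3 cultures received 5 mM butyrate in the medium for 24 h, and 3 control cultures are labelled as control only. Butyrate is a short-chain fatty acid of rumen fermentation and an inhibitor of histone deacetylases. All cultures therefore come from 1 animal, and the p-values measure the spread between cultures of that animal. The unit is FPKM, fragments scaled to transcript length and to the mapped fragments of the library, as the authors deposited it for each culture with a lower and an upper confidence bound. Read back from those bounds, the effective depth was roughly 5756610 to 6186810 fragments in each library. Changes are on the log2(FPKM + 0.1) scale, where those of weakly expressed genes come out too small. They were tested with limma over the 15813 genes whose FPKM averaged 0.1 or more.

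The label of the cells was compared with marker genes. All 9 epithelial markers were above 0 in every culture. Their summed FPKM was 2426 to 2535 in the control cultures and 5047 to 5130 in the butyrate cultures. Of the 9, 6 were higher in every butyrate culture than in every control culture, against 36.1% of all genes tested. KRT5, at a mean FPKM of 401 in control and 356 after butyrate, was the 1 marker lower in this sense, against 28.9% of all genes. The cultures also held transcripts of fibroblast markers, with COL1A1 at a mean FPKM of 1149 in control. The 9 fibroblast markers had sums of 1924 to 1982 without butyrate and of 2790 to 3038 with it. Of these 9, 7 were higher in every butyrate culture than in every control culture and 0 were lower, against the same shares. Of the leukocyte markers, PTPRC was listed at 0 in every culture, and the 9 together summed to at most 4.47. In the same sense, 2 of these 9 were higher and 1 was lower after butyrate. The 5 endothelial markers had sums of 1.97 to 2.16 without butyrate and of 6.48 to 8.43 with it, with CDH5 listed at 0 throughout. Of these 5, 2 were higher and 0 lower in that sense. CXCL8, IL6, CCL2 and LIF are also made by fibroblasts, and the part of the marker changes in the results below was not tested. In bulk RNA, fewer cells of a type and less RNA per cell cannot be told apart.

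After butyrate, 3 of the 5 ligands rose, both inhibitors fell, and none of the 3 subunits passed the test. CXCL8 rose most, by 4.19 on the log2 scale, followed by CCL2 with 2.66 and IL1A with 1.79, whereas NFKBIA fell by 0.42 and TNFAIP3 by 0.93. Thus 5 of the 10 genes passed a Benjamini-Hochberg (BH) adjusted p of 0.05, against 58.4% of all genes tested. Of the 10, 3 were higher, against 32.5% of all genes, and 2 were lower, against 25.9%. In the same 5 genes the butyrate values lay entirely on one side of the control values, which held for 65.0% of all genes, with 36.1% above the control values and 28.9% below them. The study set stricter thresholds, a log2 fold change beyond 2 together with a p under 0.05 after Bonferroni correction. Here these thresholds were applied to the limma test, whereas the study used Cufflinks for its differential expression. A differentially expressed gene (DEG) in this text is therefore not a call of the study. CXCL8 and CCL2 met the thresholds as DEGs, 2 of 10 against 3.97% of all genes, or 627 of 15813. The 10 genes, and the gene lists below, were chosen with earlier results of these data known. The shares beside their counts are thus a description only. Both DEGs were higher, against 2.46% of all genes, and 0 of the 10 were lower, against 1.51%. The median log2 fold change of the 10 genes was -0.08, or 0.05 with the values rescaled to a common sum per culture, and that of all genes tested was 0.10. Relative to the median of all genes it was -0.18 in both settings and -0.01 with quantile normalization.

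**Figure D1:**
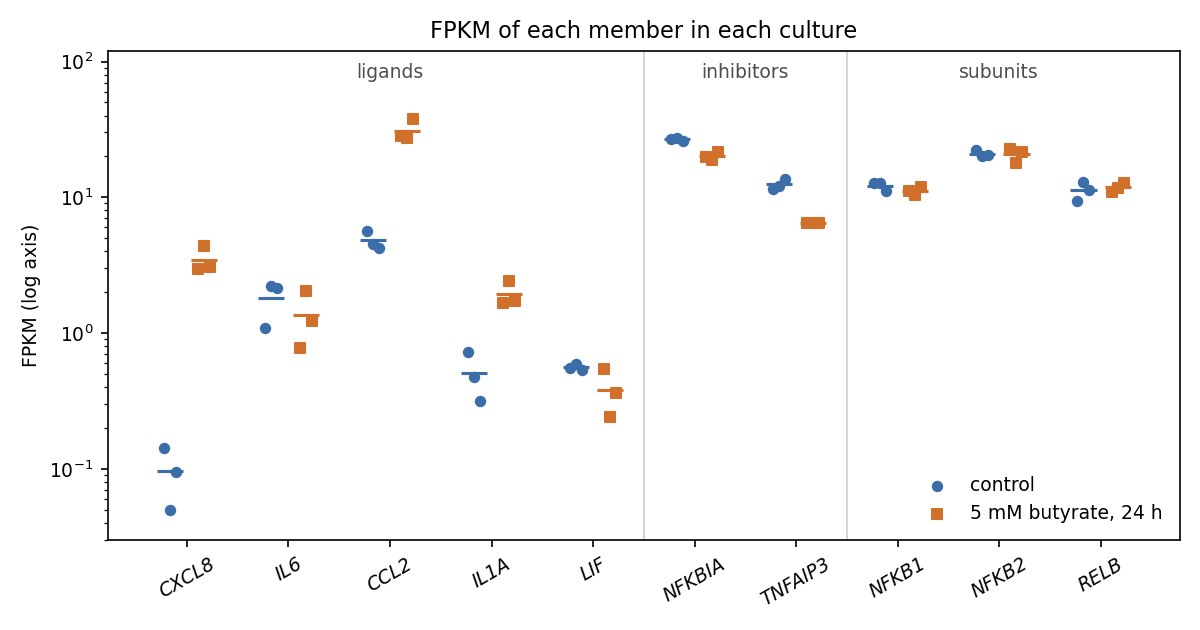
FPKM on a log axis for each of the 10 genes in the 3 control cultures (blue circles) and the 3 butyrate cultures (orange squares), with horizontal lines at the group means. The groups are apart for CXCL8, CCL2, IL1A, NFKBIA and TNFAIP3 and overlap for the other 5 genes.

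CXCL8 encodes a chemokine that attracts neutrophils, and lies on chromosome 6 from 90559882 to 90563647 in the UMD3.1 build that the tables use. Control replicates 1, 2 and 3 had an FPKM of 0.142, 0.0497 and 0.0952, and butyrate replicates 1, 2 and 3 had one of 2.98, 4.35 and 3.06. The lowest ligand of the control cultures thus reached a level above an FPKM of 2 in every butyrate culture, and the groups lay far apart. CXCL8 was higher by 4.19 ± 0.30 (SE) on the log2 scale (limma, BH-adjusted p = 5.3e-06, Bonferroni-adjusted p = 0.00634). The control values rest on very few reads. The confidence bounds imply 3, 1 and 2 fragments in the control cultures and 50, 67 and 53 in the butyrate cultures, or 6 against 170 in all. For a ratio, the fragments of each group were divided by the summed fragments per unit of FPKM of this gene in that group. The ratio was 35.5, with an exact 95% interval from 16.0 to 98.2 that covers counting error only. With so few control reads, the log2 fold change of CXCL8 moved with the pseudocount, from 5.12 at 0.01 to 2.01 at 1.

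CCL2, a chemokine for monocytes, lies on chromosome 19 from 16232956 to 16234822. It had an FPKM of 5.69, 4.51 and 4.22 in the control cultures and of 28.1, 27.2 and 37.7 in the butyrate cultures. Its mean rose from 4.81 ± 0.779 (SD, n = 3) to 31.0 ± 5.86 (SD, n = 3), and the lowest butyrate value was well above the highest control value. This was the best-measured of the rises, with a log2 fold change of 2.66, a standard error of 0.16 and an interval from 2.30 to 3.02 (limma, BH-adjusted p = 1.7e-06, Bonferroni-adjusted p = 0.00137). The bounds imply 108 fragments in control and 615 after butyrate.

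IL1A encodes interleukin 1 alpha, an epithelial alarm cytokine released by damaged cells, and lies on chromosome 11 from 46349422 to 46360402. Its FPKM was 0.721, 0.476 and 0.316 in the control cultures and 1.68, 2.40 and 1.71 in the butyrate cultures. All 3 butyrate values exceeded the highest control value, at levels that remained low. IL1A was higher by 1.79 ± 0.31 (SE) on the log2 scale (limma, BH-adjusted p = 0.00109), and its Bonferroni-adjusted p was 1, so it was no DEG. The locus overlaps those of NT5DC4 and LOC107132933, which were at or under an FPKM of 0.159 in every culture.

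IL6 and LIF, cytokines that signal through the shared receptor subunit IL6ST, did not pass the test. IL6, on chromosome 4 from 31576590 to 31582688, had an FPKM of 1.09, 2.21 and 2.13 in the control cultures and of 0.782, 2.04 and 1.23 in the butyrate cultures, and the groups overlapped. The log2 fold change was -0.43 with an interval from -1.30 to 0.44 (limma, BH-adjusted p = 0.355), so neither a fall to well below the control level nor a moderate rise is outside the interval. The other entry named IL6, on chromosome 8 from 23287273 to 23287909, was at 0.229 in control replicate 1 and listed at 0 in the other cultures. LIF, on chromosome 17 from 71412159 to 71429063, had an FPKM of 0.551, 0.590 and 0.537 in the control cultures and of 0.540, 0.241 and 0.363 in the butyrate cultures. Only butyrate replicate 1 reached the control range, and the bounds imply 22 fragments in control against 13 after butyrate. LIF differed by -0.50 on the log2 scale, with an interval from -1.25 to 0.25 (limma, BH-adjusted p = 0.223).

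**Figure D2:**
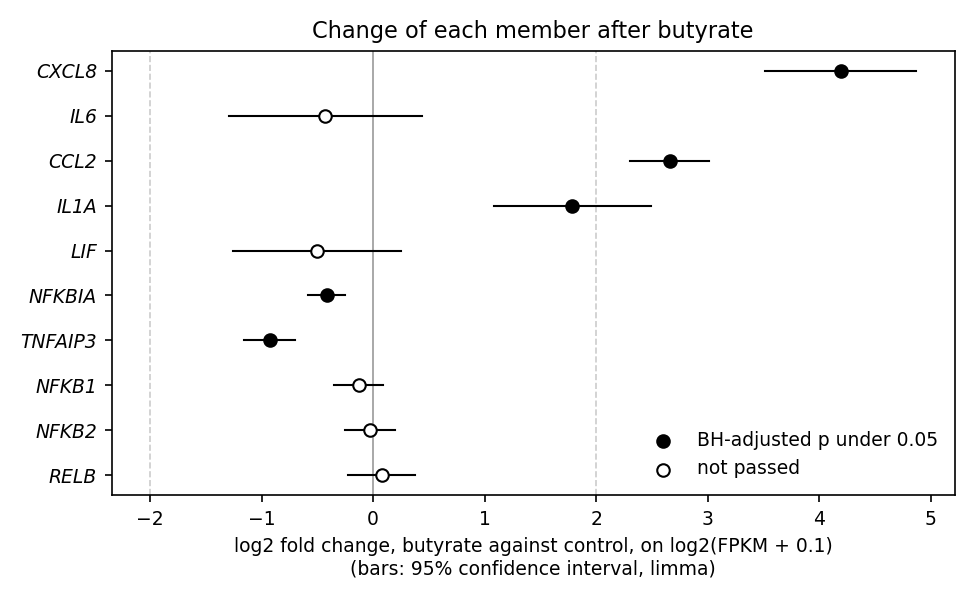
Log2 fold change of each gene between butyrate and control on log2(FPKM + 0.1), with the 95% confidence interval from limma. Filled points passed a BH-adjusted p of 0.05 and dashed lines mark a log2 fold change of 2 in either direction. CXCL8 and CCL2 lie beyond the upper line, NFKBIA and TNFAIP3 lie below 0, and the intervals of the 3 subunits are narrow and include 0.

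The 5 ligands together had a summed FPKM of 7.77 ± 0.454 (SD, n = 3) in control and of 38.1 ± 5.30 (SD, n = 3) after butyrate, 4.90 times as much. FPKM is per length of transcript, so the levels of different genes can be set side by side. CCL2 made up most of the sum in both groups, 61.6% ± 6.76 (SD, n = 3) in control and 81.0% ± 5.40 (SD, n = 3) after butyrate. IL6 was the ligand with the next largest share in control, at 23.6% ± 8.88 (SD, n = 3), and had 3.57% ± 1.79 (SD, n = 3) after butyrate. CXCL8 had 1.23% ± 0.556 (SD, n = 3) in control and 9.23% ± 2.57 (SD, n = 3) after butyrate. The shares add up to the whole, so that of a gene can be smaller after butyrate without a fall in its own FPKM, as for IL1A, which rose. IL1A had 6.40% and 5.15%, and LIF 7.21% and 1.02%, of the sum in control and after butyrate.

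**Figure D3:**
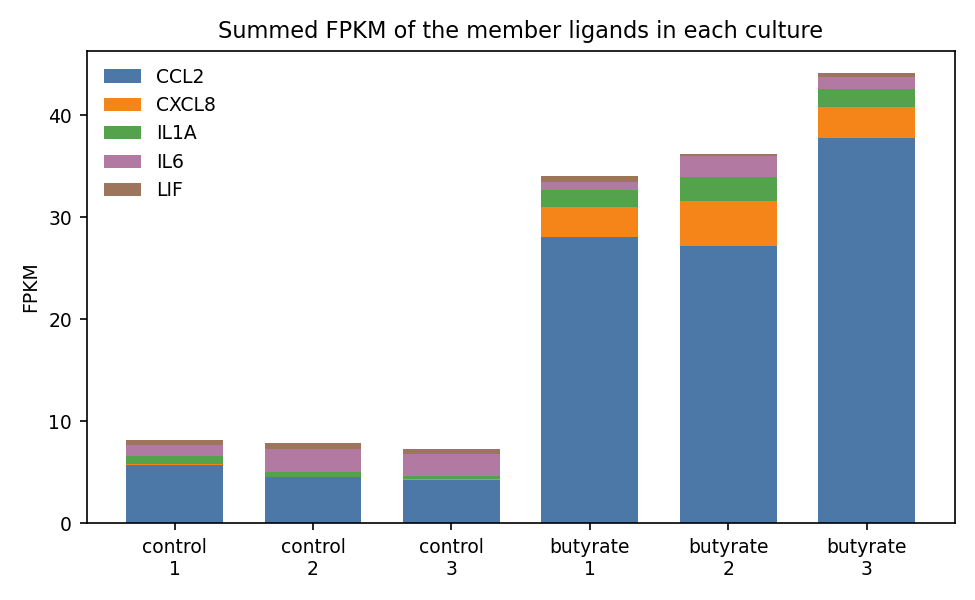
Summed FPKM of the 5 ligand genes in each culture, stacked by gene. The control bars reach 7.29 to 8.19 and the butyrate bars 34.03 to 44.1, with CCL2 as the largest part of each bar.

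Both feedback inhibitors fell. NFKBIA encodes the IkappaB protein that returns NF-kB to the cytoplasm, and lies on chromosome 21 from 46065546 to 46068942. Its FPKM was 26.9, 27.2 and 26.0 in the control cultures and 19.9, 18.7 and 21.5 in the butyrate cultures. No butyrate value reached the control range, and the fall was smaller than that of TNFAIP3. The difference was -0.42 ± 0.07 (SE) on the log2 scale (limma, BH-adjusted p = 0.00127). TNFAIP3, on chromosome 9 from 76762930 to 76778565, encodes a ubiquitin-editing enzyme that shuts down the signal between receptor and kinase. It had an FPKM of 11.5, 12.1 and 13.7 in the control cultures and of 6.47, 6.46 and 6.48 in the butyrate cultures. The butyrate values were nearly the same in each culture and all lay below the lowest control value. The difference was -0.93 ± 0.10 (SE) on the log2 scale (limma, BH-adjusted p = 6.3e-05), and neither inhibitor was a DEG.

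The subunit genes kept to a narrow range. NFKB1, on chromosome 6 from 23557313 to 23670155, had an FPKM of 12.7, 12.8 and 11.1 in the control cultures and of 11.1, 10.4 and 12.0 in the butyrate cultures. NFKB2, on chromosome 26 from 22890250 to 22898466, had 22.2, 20.3 and 20.4 in control and 22.6, 18.0 and 21.4 after butyrate. RELB, the partner of the NFKB2 product in the alternative pathway, lies on chromosome 18 from 53099831 to 53128181 and had 9.37, 13.1 and 11.4 in control and 10.9, 11.8 and 12.8 after butyrate. The groups overlapped in each of them. The log2 fold changes were -0.13 with an interval from -0.35 to 0.09 for NFKB1, -0.03 with one from -0.25 to 0.20 for NFKB2 and 0.08 with one from -0.22 to 0.38 for RELB. None passed the test (limma, BH-adjusted p = 0.285, 0.831 and 0.631), and each interval excludes a doubling or a fall to 50% on this scale. The locus of NFKB1 overlaps that of LOC100335751, which was at or under an FPKM of 0.101 in every culture.

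The order of the levels differed between the groups. In control, NFKBIA was highest at a mean FPKM of 26.7, above NFKB2 at 21.0, and CXCL8 was lowest at 0.0958. TNFAIP3, NFKB1 and RELB came after NFKB2 in that order, each overlapping with the next of the 3, and LIF and IL1A overlapped near its end. After butyrate, CCL2 was highest at a mean FPKM of 31.0 and LIF lowest at 0.381. NFKB2 and NFKBIA then overlapped, as did RELB with NFKB1 and IL1A with IL6, and the other neighbours in the order were apart. The deposited confidence bounds of all butyrate cultures lay apart from those of all control cultures in 4 genes, CXCL8, CCL2, IL1A and TNFAIP3. The share of all genes for which this holds was not computed, so the count is a description only.

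Of 7 further genes of the NF-kB family, 1 rose, 1 fell and 5 did not pass, beside 32.5% higher and 25.9% lower among all genes tested. RELA, the main activating subunit, had a mean FPKM of 28.9 ± 1.40 (SD, n = 3) in control and of 28.1 ± 0.998 (SD, n = 3) after butyrate, and REL had means of 1.99 and 2.49. Among the IkappaB genes, NFKBIB had means of 14.7 and 16.0, NFKBIE of 6.11 and 5.83, and the coactivator gene BCL3 of 29.6 and 33.9. NFKBIZ, a nuclear IkappaB protein that is needed for a subset of NF-kB targets, rose from 4.83, 4.15 and 5.35 to 12.4, 14.0 and 13.2, with a log2 fold change of 1.45 (limma, BH-adjusted p = 1.3e-05). NFKBID, another nuclear member, fell from a mean FPKM of 0.978 to 0.417 (limma, BH-adjusted p = 0.0152), a call that was lost without control replicate 2. With the values rescaled to a common sum per culture, 3 of the 7 rose and 1 fell, and 5924 of all 15813 genes rose.

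Of all 101 tested genes on 8 lists of the pathway, each counted once, 43 rose and 20 fell, beside 32.5% and 25.9% of all genes tested. Those shares hold for the main setting and belong beside each list count of that setting that follows. Rescaling to a common sum made the counts 49 and 13, and quantile normalization 33 and 20. Of all 15813 genes, 9311 passed after rescaling, 5924 of them higher. With quantile normalization 8963 passed, 4284 of them higher. These settings moved the median of all genes by 0.12 and -0.15. For the upstream kinases and the upstream receptors, the median is therefore given relative to that of all genes.

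Among the upstream kinases and adaptors, 2 of 21 rose and 8 fell, and 4 rose and 3 fell after rescaling. Their median log2 fold change relative to that of all genes was -0.18 as deposited, -0.19 after rescaling and -0.18 with quantile normalization. The counts thus moved with these scalings and the relative median hardly did, but it moved with other settings. It was -0.08 when the filter was raised to an average FPKM of 1, which all 21 genes passed, and -0.13 with a pseudocount of 1. Leaving out control replicate 3 gave -0.30, and leaving out butyrate replicate 3 gave -0.11. The number that fell was 4 without control replicate 1 or butyrate replicate 1 and 5 without control replicate 2 or butyrate replicate 2. IRAK1, a kinase downstream of interleukin 1 and Toll-like receptors, fell from a mean FPKM of 26.9 to 13.4, with a log2 fold change of -1.01 (limma, BH-adjusted p = 3.4e-05). MAP3K14, the kinase of the alternative pathway, rose from 1.05 to 2.04, and MAP3K7, which phosphorylates the IkappaB kinases, from 16.1 to 23.4. Among the other negative regulators, 6 of 12 rose and 0 fell (limma; at an unadjusted p under 0.05, 0 fell as well). The number that rose was 4 without control replicate 1, control replicate 3 or butyrate replicate 3. It was 5 with quantile normalization and 7 after rescaling. SIGIRR and TOLLIP, which dampen signals of the interleukin 1 and Toll-like receptors, rose from 6.97 to 11.7 and from 92.8 to 152, and RNF11, a partner of TNFAIP3, from 10.03 to 15.6. Among the upstream receptors and sensors, 6 of 15 rose and 3 fell, or 4 and 4 with quantile normalization. The relative median was 0.18 and 0.08 in these settings, but its sign was not stable. When the filter was raised to an average FPKM of 1, 11 of these genes were left. Of them, 3 rose and 3 fell, and the relative median was -0.03. Leaving out a butyrate culture gave -0.03 for replicate 1, 0.29 for replicate 2 and 0.23 for replicate 3. TNFRSF1B, a receptor for tumour necrosis factor, rose from 4.33 to 11.4, and NOD1, a sensor of bacterial cell wall, from 1.81 to 3.29, while TLR3, a sensor of double-stranded RNA, fell from 1.55 to 0.480.

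Other NF-kB target ligands also moved. Of 15 tested cytokines and chemokines outside the 10 genes, 10 rose and 2 fell, against 32.5% and 25.9% of all genes, or 8 and 3 with quantile normalization, and 8 more were too low to be tested, among them TNF and IL1B. CXCL2 rose from 10.3, 9.95 and 11.7 to 68.6, 79.1 and 66.8, with a log2 fold change of 2.73 (limma, BH-adjusted p = 1.1e-07). CXCL1, listed as GRO1, and CXCL3 rose with log2 fold changes of 2.54 and 2.40 (limma, BH-adjusted p = 6.8e-07 and 6.2e-07). These 3 chemokines are close copies of each other that bind the same receptor as CXCL8, and as only uniquely mapped reads were used, their separate values are uncertain. Of 14 other tested target genes, 7 rose and 5 fell, against the same shares of all genes. C3 and CFB, of the complement system, rose from 0.242 to 3.55 and from 0.471 to 4.85, and the adhesion gene ICAM1 from 10.1 to 30.4. The genes that fell were PTGS2, SOD2, BCL2L1, MMP9 and IER3, named after their values were seen. IER3, an immediate early response gene, fell from 549, 555 and 561 to 272, 289 and 284, with a log2 fold change of -0.98 (limma, BH-adjusted p = 1.9e-07), and SOD2, a mitochondrial antioxidant enzyme with 2 entries in the tables, from a mean FPKM of 105 to 60.05.

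**Figure D4:**
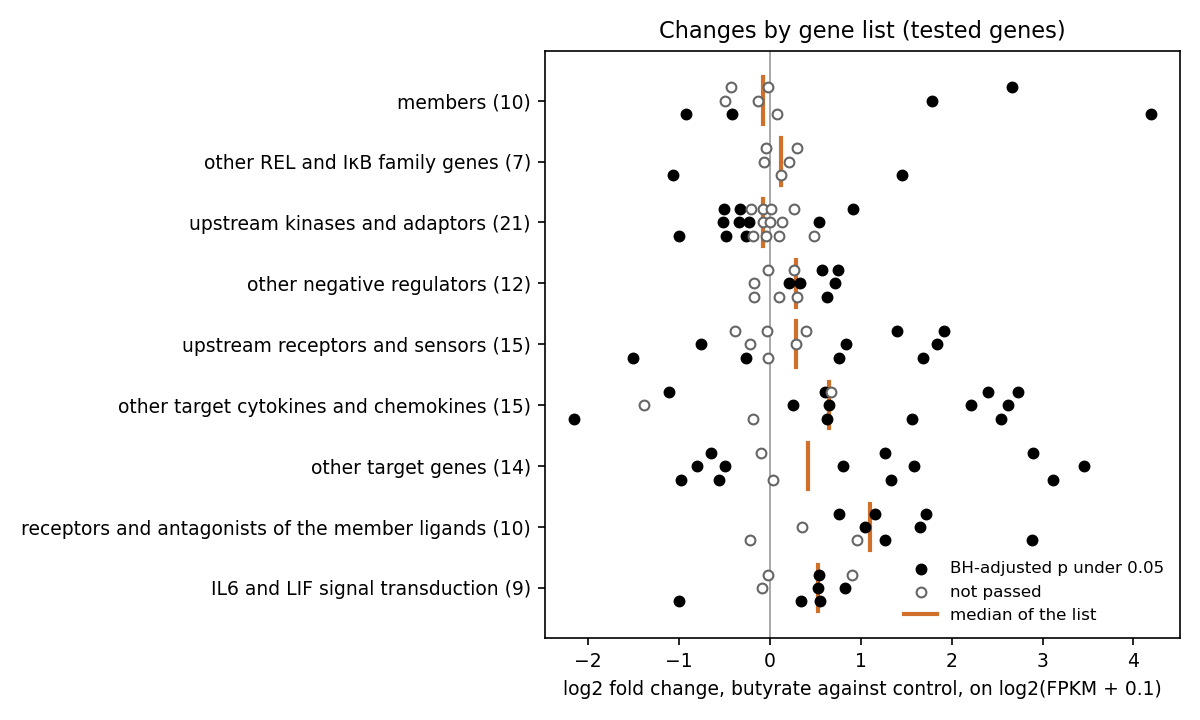
Log2 fold change between butyrate and control on log2(FPKM + 0.1) for each tested gene of the 10 genes described here (top row) and of the 8 pathway lists, with the number of tested genes in brackets. Filled points passed a BH-adjusted p of 0.05 and orange bars mark the median of a list, which is -0.08 for the 10 genes and 1.10 for the receptors and antagonists of the ligands.

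The receptors that read these ligands were mostly scarce. Of 10 tested receptors and antagonists, 7 rose and 0 fell (limma), against 32.5% and 25.9% of all genes, and IL1R1 was the single tested gene of the list with an unadjusted p under 0.05 and a lower value after butyrate. The number that rose was 4 with quantile normalization or without butyrate replicate 2, and IL1R1 passed as lower without butyrate replicate 1. CXCR1, a CXCL8 receptor, was at 0.0732, 0 and 0 in control and at 0.967, 0.957 and 0.523 after butyrate, and CXCR2 had means of 0.0866 and 0.442. CCR2, the receptor of CCL2, was listed at 0 in all 6 cultures. For IL6 and LIF, the shared subunit IL6ST rose from 14.4, 12.9 and 13.4 to 29.4, 28.4 and 26.4, with a log2 fold change of 1.05 (limma, BH-adjusted p = 7.2e-06). The ligand-binding subunits stayed low, with mean FPKM in control and after butyrate of 0.425 and 0.597 for IL6R and of 0.290 and 0.611 for LIFR, and neither passed the test. For IL1A, the receptor gene IL1R1 had means of 11.4 and 9.79 and did not pass, and its partner IL1RAP rose from 4.95 to 8.497. The antagonist gene IL1RN rose from 18.8, 18.8 and 17.6 to 41.0, 43.7 and 38.8, with a log2 fold change of 1.16 (limma, BH-adjusted p = 2.0e-06). Downstream of IL6ST, 5 of 9 signal transduction genes rose and 1 fell. STAT3 rose from 47.8 to 84.9, and the phosphatase gene PTPN11 fell from 20.3 to 10.1.

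The direction of the 5 genes that passed, and their BH calls, held under all alternatives that were run. The DEG call of CXCL8 did not. It was lost when any 1 of the 3 butyrate cultures was left out, which left CCL2 as the single DEG of the 10, and limma without a mean-variance trend called neither.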

How the data were processed

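RNA-seq of 3 control and 3 butyrate REPC cultures was used. The authors trimmed the reads with Trim Galore 0.4.1, aligned them with STAR, kept uniquely mapped reads and deposited FPKM per gene from Cufflinks with confidence bounds. The labels name UMD3.1. Strandedness is not given in the sources used here. Adjoining mitochondrial entries share a boundary number, so starts were taken to count from 0 and were raised by 1. All printed starts rest on that reading.

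Tables were joined by locus. A gene name on several entries was taken at its highest mean FPKM, and 2 genes with a failed estimate were left out. All genes were fitted on log2(FPKM + 0.1) in R 4.3.3, using the trend option of limma 3.58.1, and the fit was checked on simulated data. Count models were not applied, as FPKM hold no raw counts. The fragments behind a value were approximated from its upper bound, and 42.6% to 44.4% of values under 50 fragments came within 0.02 of a whole number. The sum of FPKM was 678035 to 681912 in control and 619401 to 629037 after butyrate. The members and lists were chosen with earlier results of these data known. Beyond the members, the text names the other REL and IkappaB genes, receptors of the ligands and, per list, the 3 largest changes that passed, did not overlap between groups and had a mean FPKM of at least 1 in a group. NFKBID, PTPRC, CDH5, COL1A1, KRT5, TNF, IL1B, PTGS2, SOD2, BCL2L1, MMP9, IER3, CXCL5, PF4, PPBP and the loci that overlap members were named outside this rule, and 1 gene that it selects is not reported here. Deviations of same-numbered cultures from their group means correlated across genes at 0.0228, -0.0043 and 0.0018, so the numbers were not taken to pair them. Alternatives were other pseudocounts, filters and scalings, no trend, the replicate block, a lower fold threshold and each culture left out.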

Additional observations from a re-analysis of the deposited data

How the results depend on the processing

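The number of genes passing BH was 5 in the main setting, 6 with quantile normalization, where LIF joined at a log2 fold change of -1.27 (limma, BH-adjusted p = 0.0156), and the same 5 genes in all others. The number of DEGs fell from 2 to 1 without a filter, to 1 with the replicate block and to 0 without the trend, and ranged from 1 to 2 with a culture left out. CCL2 was the remaining DEG wherever there was 1. Under the replicate block, the Bonferroni-adjusted p from limma was 0.148 for CXCL8 and 0.0267 for CCL2, and the BH calls were unchanged. The sign of NFKB2, never called, turned to 0.0964 after rescaling to TPM and to 0.0204 with quantile normalization, and its log2 fold change ranged from -0.0958 to 0.0696 with a culture left out. That of RELB, also never called, ranged from -0.0474 to 0.19 with a culture left out. The causes were not tested. Pathway genes passing BH numbered 63 of the 101 tested, beside 58.4% of all genes tested. Their number ranged from 52 to 63 under the alternatives, in which 83 to 111 pathway genes were tested. The lowest count was 52 of 83 with a mean FPKM of at least 1, where 7995 of all 12079 genes passed. With a mean FPKM of at least 1, LIF had no value. The few fragments behind CXCL8 in control, LIF and IL6 limit the size that can be given for their changes.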

Other observations

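The following values were chosen after the data were seen and are given as a description, with no test. CXCL8 opens a stretch of 265 kb on chromosome 6, from 90559882 to 90824841, that ends with GRO1 and holds 11 entries. CXCL5, CXCL2, CXCL3 and GRO1, which encode neutrophil chemokines, were each higher in every butyrate culture than in every control culture. CXCL5 had the highest level of the stretch in both groups, with an FPKM of 37.7, 36.3 and 35.1 in control and of 102, 118 and 103 after butyrate. PF4, a platelet chemokine gene in the same stretch, was listed at 0 in all control cultures and was at 0.882, 0.777 and 0.891 after butyrate. PPBP, its neighbour, whose product also gives rise to a neutrophil chemokine, was listed at 0 in all 6 cultures.

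IL1A and IL1RN, agonist and antagonist at the same receptor, lie within 357 kb on chromosome 11. The FPKM of IL1RN was 26.1, 39.4 and 55.8 times that of IL1A in the control cultures and 24.4, 18.2 and 22.7 times in the butyrate cultures. Both genes rose, and the antagonist transcript stayed the more abundant in every culture. Between them, IL1B was above 0 in 1 culture, butyrate replicate 2, at 0.0554.

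The inhibitors can also be set against RELA within each culture. The FPKM of TNFAIP3 was 0.408, 0.431 and 0.448 times that of RELA in the control cultures and 0.228, 0.223 and 0.240 times in the butyrate cultures. For NFKBIA, the FPKM was 0.955, 0.968 and 0.853 times that of RELA in control and 0.700, 0.645 and 0.797 times after butyrate. NFKBIZ had 0.180, 0.153 and 0.206 times the FPKM of NFKBIA in control and 0.625, 0.749 and 0.616 times after butyrate.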
